A study of Mus musculus with 6 samples.

Results

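Fos, Fosb, Jun, Junb, Egr1, Atf3, Ier2, Ier3, Dusp1 and Nr4a1 are immediate early genes, and they also belong to the genes that cells switch on when a tissue is taken apart. Their expression was examined in endothelial cells of mouse skin, with 3 arrays for wild type and 3 for mice deficient in APJ. APJ, the product of Aplnr, is the receptor through which the peptide apelin acts on endothelial cells. The 10 genes were chosen by name, and their probes were found through the RefSeq accession that the array gives for each probe. All 10 were present, each with 1 probe, among 20018 gene symbols on the array, and all 10 passed the filter on low signals. Per the labels, the strain was C57Bl/6J throughout, the genotypes were wildtype and APJ KO, each sample carried the number of 1 mouse, and the cells were sorted by fluorescence and received no treatment after the sort. The labels used here do not say how the receptor was removed, which markers served for sorting, how the skin was dissociated, or the age, although the names of the scanner files carry an embryonic stage.

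Immediate early genes are transcribed within minutes of a stimulus, from promoters that are already occupied by factors waiting for a signal, and their messenger RNAs are short-lived. Growth factors, serum, shear stress, cytokines and mechanical or thermal stress reach them mainly through the MAP kinases, which phosphorylate ternary complex factors bound with SRF, and through CREB. Enzymatic digestion and sorting of tissue supply such stimuli as well, and so these transcripts are widely used as signs of handling in dissociated cells. Fos and Fosb form AP-1 transcription factors with Jun and Junb, Egr1 is a zinc finger factor, Atf3 is a stress-induced bZIP factor of the CREB family, Nr4a1 is an orphan nuclear receptor, and Dusp1 is a phosphatase that switches MAP kinases off again.

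The promoters are shown because the letters TGACG are the core of the element that CREB and ATF factors bind, one of the known routes of induction of such genes. The RefSeq promoter table of build GRCm38.p6 held 8 of the 10 genes, all but Egr1 and Ier2. In the 250 bases before the start, TGACG occurred on either strand in 6 of these 8 promoters, against 17.8% of 32851 promoters in the table. The 6 were those of Fos, Fosb, Junb, Atf3, Dusp1 and Nr4a1. The promoters of 3 genes whose signals varied alike across the arrays (Fos, Fosb and Junb, described below with their values) and that of Dusp1 are given 5′ to 3′, with TGACG or its reverse complement in capitals. They lie at chr12:85473640-85473889 on the plus strand for Fos, and on the minus strand at chr7:19310046-19310295 for Fosb, chr8:84978749-84978998 for Junb and chr17:26508473-26508722 for Dusp1.
Fos: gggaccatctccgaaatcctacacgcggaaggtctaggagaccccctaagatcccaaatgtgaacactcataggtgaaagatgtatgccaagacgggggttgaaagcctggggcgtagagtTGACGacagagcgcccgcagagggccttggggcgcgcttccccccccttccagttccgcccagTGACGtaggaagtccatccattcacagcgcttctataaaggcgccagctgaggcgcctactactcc
Fosb: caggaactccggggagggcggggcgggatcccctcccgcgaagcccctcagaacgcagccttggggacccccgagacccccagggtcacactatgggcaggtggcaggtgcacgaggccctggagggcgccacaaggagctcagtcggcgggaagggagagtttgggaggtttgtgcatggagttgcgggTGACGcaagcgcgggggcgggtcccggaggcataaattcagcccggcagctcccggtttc
Junb: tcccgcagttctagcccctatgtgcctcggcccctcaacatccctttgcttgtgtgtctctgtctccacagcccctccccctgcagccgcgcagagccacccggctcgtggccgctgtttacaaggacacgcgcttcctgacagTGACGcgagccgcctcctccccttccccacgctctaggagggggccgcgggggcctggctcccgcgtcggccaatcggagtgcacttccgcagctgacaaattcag
Dusp1: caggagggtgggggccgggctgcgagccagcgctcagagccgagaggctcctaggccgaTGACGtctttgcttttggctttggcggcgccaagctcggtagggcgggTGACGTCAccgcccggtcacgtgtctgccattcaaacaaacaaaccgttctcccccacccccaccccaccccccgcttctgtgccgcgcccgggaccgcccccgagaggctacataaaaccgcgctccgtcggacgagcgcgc
Fos carried the letters 129 and 66 bases before its start, Fosb 60 and Junb 106 bases before it. Dusp1 carried the full palindrome TGACGTCA, which begins 143 bases before its start, holds TGACG on both strands, and occurred in 1.55% of all promoters. The GC box GGGCGG was found on either strand in 7 of the 8, all but Junb, against 32.7% of all promoters. TATAAA was found only in Fos (12.4% of all promoters) and CCGGAA, a core of ETS sites, only in Nr4a1 (12.0%). Neither the AP-1 letters TGANTCA (6.75% of all promoters) nor the CArG box of SRF (1.47%) occurred in these windows, which says only that they are not within 250 bases of these starts. A match of letters is not a measurement of binding.

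Signals are given as log2 of the scanner software's processed intensity minus the array's own 75th percentile, so that 0 is the level below which 75% of spots lie. Each probe has its own brightness, and levels are therefore not compared between genes. Arrays were scanned on 2 slides, on different days: slide 1 held replicates 1 and 2 of both genotypes and slide 2 held replicate 3 of both. Of 55681 probes, 50.3% to 58.0% were well above background per array, no spot was saturated, and the 75th percentiles of intensity were 250.4 to 398. Aplnr itself read 3.65 ± 0.26 in wild-type and 1.96 ± 0.27 in knockout samples (SD, n = 3 each; limma adjusted p = 0.0237), with no overlap between genotypes, although it stayed well above background in all knockout samples. Whether its probe lies inside the deletion is unknown here, and Aplnr no longer passed once the replicate number was a block (limma adjusted p = 0.0779), once no filter on dim probes was set (0.187), or once any 1 array except knockout replicate 3 was left out (0.0522 to 0.131). All 18 endothelial markers were measured, with a summed level of 1298 to 1424 times the 75th percentile in wild type and 1359 to 1468 times in the knockout. Nothing in the labels used here says whether the samples were separate sorts, so the p-values reflect the spread among these samples, which may be technical.

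All 10 immediate early genes were well above background on all 6 arrays, and every one lay above the 75th percentile on every array. None differed between APJ knockout and wild type past the threshold, 0 of 10 at an adjusted p under 0.05 in limma, where 0.557% of 24221 genes and unnamed probes did. At an unadjusted p under 0.05 limma also called 0 of 10, against 8.02% of everything tested. The 3 knockout arrays overlapped the 3 wild-type arrays in all 10 genes, while 12.2% of everything tested did not overlap.

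Fos, the partner that AP-1 gains on stimulation, read 5.25, 4.98 and 4.40 in wild-type replicates 1 to 3 and 5.02, 5.33 and 4.68 in knockout replicates 1 to 3. The lowest array of each genotype was the one on slide 2, and the genotypes overlapped. The means were 4.88 ± 0.43 and 5.01 ± 0.33 (SD, n = 3 each), and the knockout minus wild type difference was 0.13 ± 0.26 (SE of limma). Its probe was printed 10 times on each array, and the repeat spots had an SD of 0.04 to 0.05 on the log2 scale within an array.

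Fosb, a close relative of Fos, read 3.02, 2.83 and 2.27 in wild type and 2.81, 3.34 and 2.74 in the knockout. Again the slide 2 array was the lowest of its genotype, and the difference was 0.26 ± 0.24 (SE, n = 3 per group). Junb, the Jun relative that activates many AP-1 sites less strongly than Jun, read 0.97, 0.28 and 0.06 in wild type and 0.73, 1.10 and 0.28 in the knockout. Its order of arrays within each genotype was that of Fos, and the difference was 0.27 ± 0.29. Jun, the main DNA-binding partner of Fos, read 6.30, 6.28 and 6.68 in wild type and 5.86, 6.38 and 6.54 in the knockout. Here the slide 2 array was the highest of each genotype, the reverse of Fos, Fosb and Junb. Jun differed by -0.16 ± 0.21 between genotypes (SE, n = 3 per group).

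Egr1, which is induced by shear stress and growth factors in vessels, read 5.39, 5.54 and 5.20 in wild type and 5.14, 5.50 and 5.09 in the knockout. It had the narrowest range of the 10, the highest array being 1.37-fold above the lowest, and it was the only one besides Jun whose mean was lower in the knockout (-0.13 ± 0.15, SE, n = 3 per group). Atf3 read 4.02, 3.34 and 3.65 in wild type and 3.39, 4.35 and 3.62 in the knockout. Knockout replicates 1 and 2, from the same slide, stood at the low and the high end of its values, and the genotype difference was 0.11 ± 0.29.

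Ier3, a short-lived stress-induced protein with roles in cell survival, varied most. It read 3.32, 2.34 and 3.57 in wild type and 2.79, 3.73 and 3.51 in the knockout, so that the highest array was 2.62-fold above the lowest. The genotype difference of 0.27 ± 0.38 (SE, n = 3 per group) was smaller than the SD of either group (0.65 in wild type and 0.49 in the knockout). Ier2, a nuclear protein of the early serum response, read 2.10, 1.60 and 1.74 in wild type and 1.86, 2.04 and 1.88 in the knockout, and all knockout values lay within the wild-type range. Its difference was 0.11 ± 0.15.

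Dusp1, which ends MAP kinase signals, read 3.98, 3.66 and 3.76 in wild type and 3.83, 4.18 and 3.97 in the knockout. Nr4a1 read 6.04, 5.50 and 5.74 in wild type and 5.88, 6.10 and 6.03 in the knockout. In both genes wild-type replicate 1 reached into the knockout values while the other wild-type arrays lay below them. The differences were 0.19 ± 0.13 for Dusp1 and 0.25 ± 0.15 for Nr4a1 (SE, n = 3 per group), the largest of the 10 relative to their errors.

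**Figure D1:**
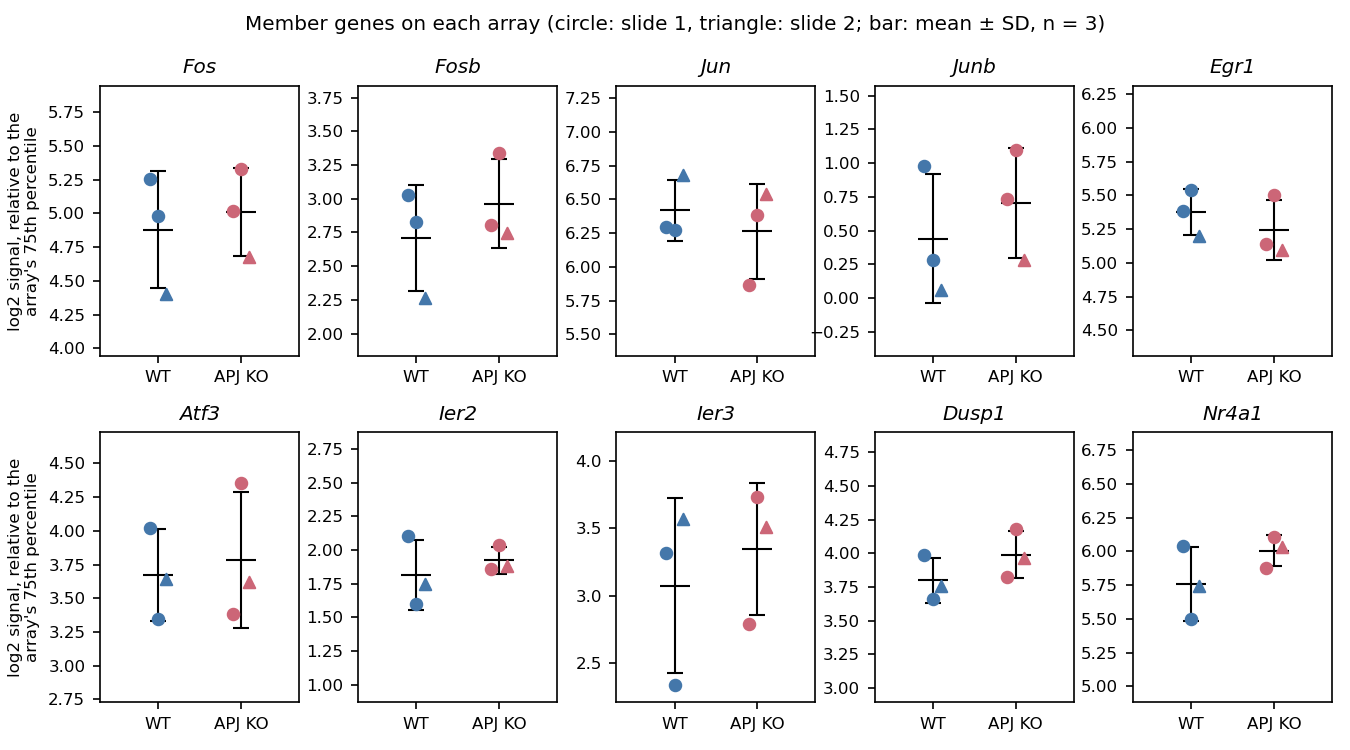
Log2 signal of each of the 10 genes relative to the array's 75th percentile, 1 point per array, for wild type (WT, blue) and APJ knockout (APJ KO, red); circles are slide 1, triangles are slide 2, and bars give the mean ± SD of 3 arrays. The 2 genotypes overlap in every gene, and the triangles are lowest in Fos, Fosb, Junb and Egr1 and highest in Jun.

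Over the 10 genes 8 had a higher mean in the knockout, with a median difference of 0.16 on the log2 scale, where 43.9% of everything tested was above 0 with a median of -0.02. The median rested on single arrays: it was 0.06 without wild-type replicate 2, 0.06 without knockout replicate 2 and 0.07 without wild-type replicate 3, with 6, 6 and 7 genes above 0, and 0.30 without wild-type replicate 1 and 0.26 without knockout replicate 1. The adjusted p over everything tested lay between 0.926 and 0.9998 in limma, and exact two-sided permutation tests gave 0.3 to 0.7, where 0.1 is the smallest that 3 against 3 allows. A missed threshold does not show equal levels, and the 95% intervals of limma give the sizes that remain compatible with the arrays. They lay inside a 2-fold change in either direction for 9 of the 10 genes. Egr1 was bounded most closely from above, the knockout level being 91.1% of wild type with an interval of 71.3% to 117%. For Nr4a1 it was 119% (91.9% to 153%), for Dusp1 114% (91.4% to 142%) and for Fos 109% (71.4% to 168%). Ier3 was the exception, at 121% with an interval of 64.6% to 225%.

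**Figure D2:**
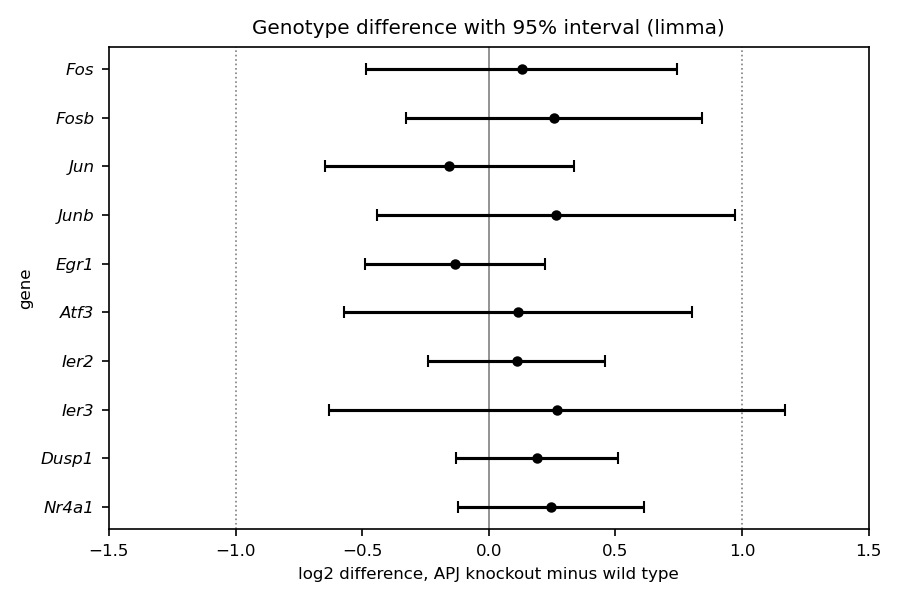
Log2 difference, APJ knockout minus wild type, for each of the 10 genes, with its 95% interval from limma (3 arrays per group); dotted lines mark a 2-fold change in either direction. Every interval crosses 0, and only that of Ier3 reaches past 2-fold.

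The SD within genotypes exceeded the difference between genotypes in 8 of the 10 genes, all but Dusp1 and Nr4a1. This pooled SD had a median of 0.33 over the 10 genes, against 0.16 over everything tested, and was above the latter value in all 10. Ier3 (0.57), Junb (0.44) and Atf3 (0.43) had the largest and Dusp1 (0.17) the smallest. The same arrays recurred among the genes: knockout replicate 2 was the highest of the 6 arrays in 7 of 10 genes and above the gene's own mean in 10 of 10. Wild-type replicate 1 was above the gene's mean in 9 of 10, all but Jun. Wild-type replicate 2 was the lowest array in 5 genes (Atf3, Ier2, Ier3, Dusp1 and Nr4a1), and wild-type replicate 3 in the 3 genes Fos, Fosb and Junb.

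Averaged over the 10 genes, the deviation from each gene's own mean was 0.18, -0.22 and -0.15 in wild-type replicates 1 to 3 and -0.13, 0.35 and -0.02 in knockout replicates 1 to 3. One array of each genotype therefore stood high, and both of these were on slide 1. Within the knockout on slide 1, replicate 2 exceeded replicate 1 in 10 of 10 genes with a median of 0.36, where 58.4% of everything tested did so with a median of 0.04. Within wild type on slide 1, replicate 1 exceeded replicate 2 in 9 of 10 genes, all but Egr1, with a median of 0.41, where 38.9% of everything tested did so with a median of -0.05. These pairs of arrays were chosen after their values were seen.

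**Figure D3:**
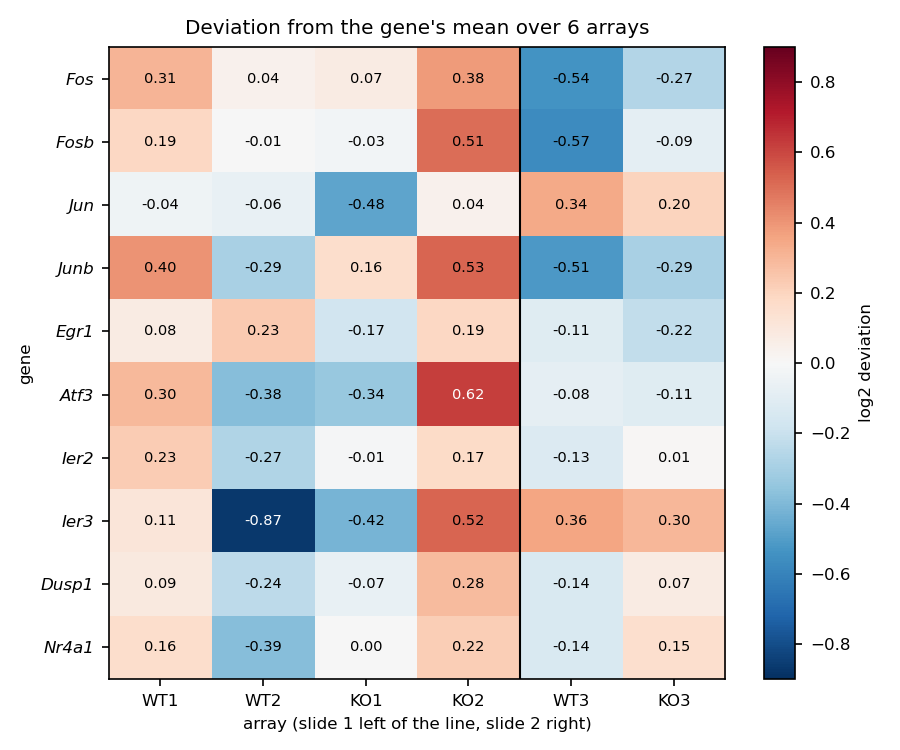
Log2 deviation of each gene on each array from that gene's mean over the 6 arrays (rows, genes; columns, arrays, with WT for wild type, KO for APJ knockout and the replicate number; red above, blue below the mean). Knockout replicate 2 is above the mean in all 10 genes, while Fos, Fosb and Junb are low on slide 2 and Jun and Ier3 are high there.

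In a limma fit with genotype and slide as terms, Fos was lower on slide 2 by 0.60 ± 0.13 on the log2 scale (-0.60, SE, adjusted p = 0.0494). It was the only 1 of the 10 to pass, a share close to the 10.5% of everything tested that passed. Junb differed by -0.60 ± 0.22, Fosb by -0.50 ± 0.18 and Egr1 by -0.24 ± 0.12, whereas Jun differed by 0.41 ± 0.15 and Ier3 by 0.49 ± 0.38, none of them past the threshold (adjusted p of 0.128 to 0.418). Slide 2 held only replicate 3 of each genotype, so the slide, the scan and these samples cannot be told apart. With the slide as a block, no immediate early gene passed between genotypes either (0 of 10, against 1.20% of everything tested), nor with the replicate number as a block (0 of 10, against 0.0206%).

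Other immediate early genes followed the same arrays. Of 50 further genes of this kind listed, 47 were tested, and none passed between genotypes (0 higher and 0 lower, 3 at an unadjusted p under 0.05 in limma), with 33 above 0 and a median of 0.11. Their mean deviation was 0.18, -0.22 and -0.19 in wild-type replicates 1 to 3 and -0.04, 0.28 and -0.0031 in knockout replicates 1 to 3, within 0.1 of the values of the 10 genes on every array. Knockout replicate 2 was the highest array in 27 of the 47 and wild-type replicate 1 in 13, whereas over everything tested these arrays were highest in 14.6% and 12.1%. Knockout replicate 2 exceeded knockout replicate 1 in 43 of 47, and wild-type replicate 1 exceeded wild-type replicate 2 in 43 of 47. The smallest unadjusted p between genotypes belonged to Cebpb, a bZIP factor of inflammation, with a difference of 0.49 ± 0.17, Ccn2, a matricellular protein, with 0.32 ± 0.12, and the kinase gene Pim1 with 0.27 ± 0.11 (SE, n = 3 per group; adjusted p from limma 0.482, 0.514 and 0.615).

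The kinases and factors that act upstream of these genes were also measured. The 23 tested genes for MAP kinases, SRF with its partners and CREB had mean deviations of -0.13 to 0.09 over the 6 arrays, with 0 called in either direction and a median genotype difference of 0.0018. Knockout replicate 2 exceeded knockout replicate 1 in 12 of 23 of them and knockout replicate 3 in 17 of 23. Over everything tested, 58.4% and 47.5% did so. Wild-type replicate 1 exceeded wild-type replicate 2 in 13 of 23 and wild-type replicate 3 in 16 of 23, against 38.9% and 46.4% of everything tested. Crem, a CREB relative that is itself induced by cyclic AMP, had the smallest unadjusted p (0.33 ± 0.13, limma adjusted p = 0.572). The 16 tested AP-1 and bZIP partners deviated by -0.05 to 0.05, also with 0 called and a median of 0.04. Among 20 tested ERK feedback inhibitors and targets 0 were called, with a median of 0.11, and Dusp4, a nuclear MAP kinase phosphatase, differed by -0.51 ± 0.18 (limma adjusted p = 0.51). An average over a list evens out genes that move apart, so these values describe the list and not each gene.

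NF-κB early response genes, which inflammatory signals induce, also differed between arrays of 1 genotype. The 19 tested had a mean deviation of 0.06, -0.41 and 0.22 in wild-type replicates 1 to 3 and -0.27, 0.29 and 0.10 in knockout replicates 1 to 3. Like Ier3 and unlike Fos, they were above their mean on both slide 2 arrays. None was called between genotypes, with 10 of 19 above 0 and a median of 0.09. The 3 genes with the smallest unadjusted p were the subunit genes Relb and Nfkb2 and the inhibitor gene Nfkbie, all lower in the knockout. Their differences were -0.53 ± 0.12, -0.37 ± 0.10 and -0.38 ± 0.12 (SE, n = 3 per group, adjusted p from limma 0.158, 0.244 and 0.381). In all 3 the genotypes did not overlap, as in 12.2% of everything tested.

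Heat shock and chaperone genes, the other classic signature of dissociation, had a median difference below 0, where 8 of the 10 immediate early genes were above 0, and 0 were called. Of 19 tested, 4 were above 0 and the median was -0.11. Within slide 1, knockout replicate 2 exceeded knockout replicate 1 in 18 of 19, and wild-type replicate 1 exceeded wild-type replicate 2 in 13 of 19. Over everything tested, 58.4% and 38.9% did so. The mean deviation of this list was 0.08, -0.09 and 0.19 in wild-type replicates 1 to 3 and -0.18, 0.03 and -0.03 in knockout replicates 1 to 3. Dnajb1, a co-chaperone of HSP70, read 5.91, 5.77 and 5.82 in wild type and 5.46, 5.70 and 5.62 in the knockout, which differed by -0.24 ± 0.10 (SE of limma, adjusted p = 0.608). The mitochondrial chaperonin gene Hspe1 differed by -0.22 ± 0.10 (limma adjusted p = 0.718), and Hspb1, a small heat shock protein also abundant in epidermis, by -0.76 ± 0.38 (limma adjusted p = 0.776), its wild-type replicate 3 standing at 5.54 against 3.57 to 4.27 on the other arrays. Integrated stress response genes, which act downstream of ATF4, had a median of -0.02 over 19 tested, 0 called. The 3 with the smallest unadjusted p were the growth factor gene Gdf15, Chac1, which degrades glutathione, and the lipoprotein receptor gene Vldlr. They differed by 1.18 ± 0.29, 0.51 ± 0.12 and 0.44 ± 0.10, none past the threshold (limma adjusted p = 0.216, 0.195 and 0.178). In these 3 the genotypes did not overlap, as in 12.2% of everything tested.

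Osgin1, an oxidative stress response gene, was the only one of 173 genes tested over these pathway lists to pass, a share close to the 0.557% of everything tested that passed. It read -1.05, -0.91 and -0.79 in wild type and 0.07, 0.06 and 0.08 in the knockout, so that the genotypes were far apart. Osgin1 rose in the knockout by 0.99 ± 0.10 in log2 units (SE, n = 3 per group; adjusted p = 0.0207 in limma). It no longer passed when the replicate number was a block (limma adjusted p = 0.0738), when no filter on dim probes was set (0.190), or when any 1 array except wild-type replicate 3 was left out (0.0615 to 0.120). The other 9 oxidative and metal stress genes did not pass. Nqo1, a quinone reductase, was well above background on all 3 knockout arrays, at -4.07, -3.82 and -4.24, and on no wild-type array, where it was measured at -5.02, -3.98 and -5.11. The genotypes overlapped, and the difference of 0.66 ± 0.31 (SE, limma adjusted p = 0.719) was 0.07 after normexp background correction, so no fold is given. Hmox1, the heme oxygenase, differed by 0.18 ± 0.11 (limma adjusted p = 0.915).

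**Figure D4:**
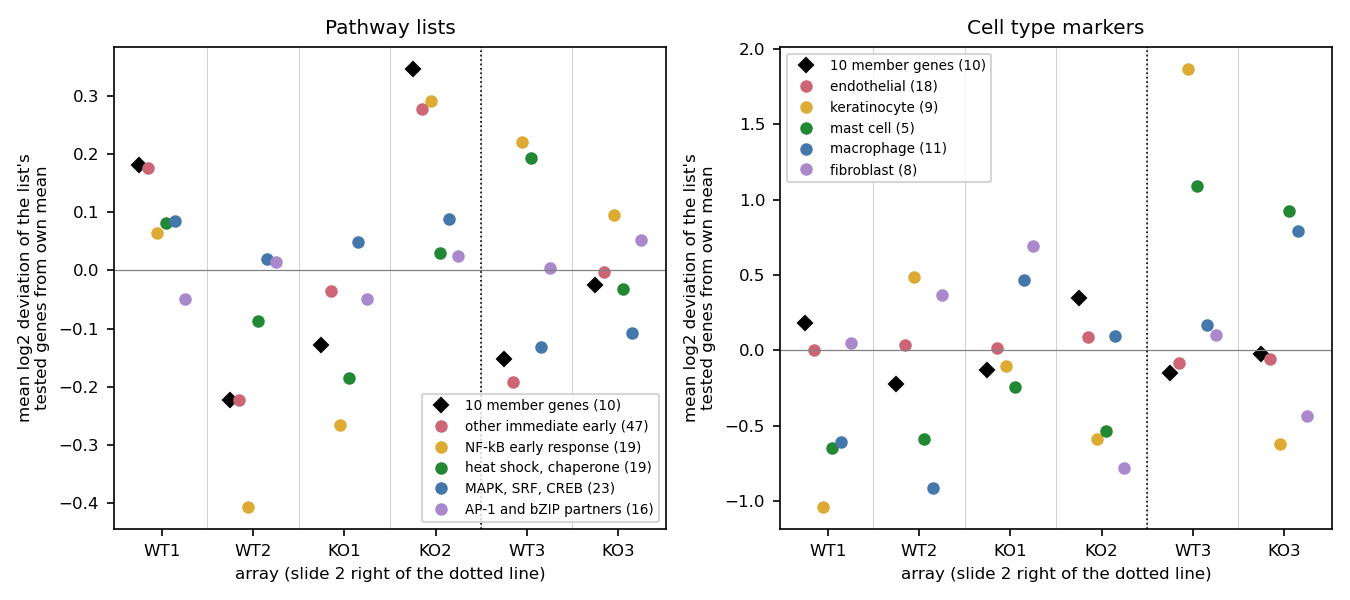
Mean log2 deviation of each gene list on each array, every gene being centred on its own mean over the 6 arrays, for pathway lists (left) and cell type markers (right); the number of tested genes is in brackets, and the vertical scales differ. The other immediate early genes lie within 0.1 of the 10 genes on every array, MAP kinase, SRF and CREB genes stay between -0.13 and 0.09, and mast cell markers are high on both slide 2 arrays.

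Markers of other cell types also moved between arrays, and their part in the variation of the immediate early genes was not tested. In bulk samples, fewer cells of a type and less RNA per cell cannot be told apart. Mast cell markers, of which 5 of 8 were tested, had a summed level of 91.9 times the 75th percentile in wild-type replicate 3 and 71.7 in knockout replicate 3, against 23.5 to 27.1 on the slide 1 arrays, with Cpa3 and Hdc at 5.47 and 5.22 in wild-type replicate 3. On these arrays Jun and Ier3 were high and Fos, Fosb and Junb low. Keratinocyte markers (9 of 14 tested) summed to 34.9 in wild-type replicate 3 and to 10.5 to 16.7 elsewhere, with Trp63 at 2.93 to 3.24 over the 6 arrays and Krt10 at 2.11 in that sample. Fibroblast markers (8 of 10 tested) summed to 3.27 to 7.98 and were lowest in knockout replicate 2, where the immediate early genes were highest. Erythroid markers (7 of 10 tested), led by Hba-a2 and Hba-a1, summed to 1469 and 1420 in wild-type replicate 2 and knockout replicate 1, against 769 to 951 elsewhere. In both of these samples the immediate early genes averaged below their mean. They also did so in wild-type replicate 3 (-0.15) and knockout replicate 3 (-0.02), where the erythroid sums were 769 and 826. Endothelial markers deviated by -0.09 to 0.09 on average, with Egfl7 between 8.81 and 9.02 and Robo4 between 7.57 and 7.79.

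Mural markers (6 of 10 tested) had their lowest sums on the 2 arrays where the immediate early genes were high. These sums were 3.32 in wild-type replicate 1 and 3.56 in knockout replicate 2, against 4.14 to 4.18 elsewhere. The mean deviation of the mural markers was -0.28 and -0.38 on these arrays and -0.07 to 0.31 on the others. Knockout replicate 2 exceeded knockout replicate 1 in 1 of 6 mural markers, and wild-type replicate 1 exceeded wild-type replicate 2 in 0 of 6. The 2 brightest, Tagln and Abcc9, did not follow the sum on every array. Tagln read 0.94 in knockout replicate 2 against 0.78 in knockout replicate 1. Abcc9 was lowest in wild-type replicate 3, at -0.52, against -0.24 in knockout replicate 2.

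Lymphatic endothelial, macrophage and platelet markers lay mostly higher in the knockout, although limma called 0 of each list past the threshold. Keratinocyte and fibroblast markers lay mostly lower, also with 0 called. Of these, 1 of 9 and 2 of 8 were above 0, with medians of -1.05 and -0.38. All 8 lymphatic endothelial markers, among them Ccl21a and Mmrn1, were above 0, with a median of 0.54 and 7 of 8 at an unadjusted p under 0.05. Their mean deviation was -0.34 to -0.24 in wild type and 0.09 to 0.40 in the knockout, while their summed level, 534 to 624 and 579 to 650, overlapped. Of the macrophage markers (11 of 12 tested) 10 were above 0, with a median of 0.48 and 7 of 11 at an unadjusted p under 0.05. They summed to 12.1 to 20.9 in wild type and 13.5 to 18.7 in the knockout, highest on slide 2 in each genotype. Tyrobp read 2.82 and 2.91 there, against 0.98 to 1.46 on slide 1. Csf1r went the other way between genotypes, with a difference of -0.23 ± 0.16 (SE of limma). Its lowest and highest arrays were both on slide 2, 2.62 in knockout replicate 3 and 3.28 in wild-type replicate 3. Platelet markers (8 of 8 tested), among them Pf4 and Itgb3, summed to 6.57 to 6.98 in wild type and 8.09 to 10.4 in the knockout, with 7 of 8 above 0, a median of 0.32 and 4 of 8 at an unadjusted p under 0.05. Neural crest markers (5 of 9 tested), with Mitf and Sox10 the highest, summed to 1.08 to 1.84 and 1.06 to 1.82. Skeletal muscle markers summed to 0.15 to 0.21 over Tnnt3 and Acta1, the other 6 of 8 (Myod1, Myog, Myf5, Myh3, Actc1 and Des) being not well above background on any array. The same was true of Dpt among fibroblast, Myh11 and Des among mural, Epb42 among erythroid, and Erbb3 and Foxd3 among neural crest markers.

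The genes whose 6 values lay closest to the average pattern of the 10, by the root mean square difference after centring, were Mafk (0.04), Sowahc (0.04), Zmynd10 (0.06), Spty2d1 (0.07), Sbno2 (0.07) and Zbtb2 (0.07), out of 13433 named genes compared over 6 samples. Mafk, a small Maf bZIP factor that is also among the other immediate early genes listed, read 0.94, 0.55 and 0.55 in wild type and 0.65, 1.05 and 0.67 in the knockout. The genes closest to Fos were Chm (0.07), Rab5a (0.08), Palb2 (0.08) and BC031361 (0.09). Within the 10, Fosb was nearest to Fos at 0.11, with 15 other named genes closer, and Junb next at 0.16. Jun and Ier3 were farthest from Fos, at 0.51 and 0.61. Dusp1 (0.07), Ier2 (0.09) and Nr4a1 (0.12) were nearest to the average of the 10, and Ier3 (0.39) was farthest from it.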

How the data were processed

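Cy3-labelled RNA was hybridised to 1-colour Agilent arrays, 3 per genotype. Agilent Feature Extraction 10.7.3.1 wrote the deposited intensity of each spot, background-subtracted and detrended but not scaled between arrays, per the file headers. Values in the authors' deposited table equal this intensity times 1 constant per array (2.29 to 3.69), so they are linear and not centred by gene, with column medians of 63.46, 62.09, 65.15, 66.98, 60.3 and 63.25 in the order wild type 1 to 3, knockout 1 to 3. The origin of the constants: not given in the sources used here. The scanner software's calls of well above background and of outlier spots are used as deposited.

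Control spots and 126 to 179 outlier spots per array were left out, log2 intensities had the array's 75th percentile over spots subtracted, and spots of 1 probe were averaged. Probes were named by RefSeq or Ensembl accession with a table of build GRCm38.p6, while the array was designed on mm9. Of 27016 probes with a curated RefSeq accession, 26403 were named. A probe was tested if well above background on every array of at least 1 genotype, and a gene was represented by its brightest probe. Another 24 genes or probes with no usable spot on some array were not tested. Genotype was the only term of the fit, made by lmFit and eBayes of limma 3.58.1 (R 4.3.3), with Benjamini-Hochberg adjustment over all 24221 tested and a threshold of 0.05. The script was tested on simulated data. The number of arrays limits the precision.

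The members, the gene lists, the tests and the alternatives were chosen with earlier results of these data known. The text names every member, Aplnr, the 3 genes of each pathway list with the smallest unadjusted p and any past the threshold, the 2 brightest tested markers of each cell type, and the 6 and 4 genes closest in pattern to the average of the members and to Fos. Markers not above background on any array are also named. Slide and replicate number come from the headers and the titles. Same-numbered samples deviated together from their group means (correlation over genes 0.23, 0.15 and 0.65 for numbers 1, 2 and 3), so the number was taken as a pairing, although both crossed pairs on slide 1 correlated more, wild type 1 with knockout 2 at 0.36 and wild type 2 with knockout 1 at 0.28. Alternatives were other scalings, normexp background correction (on median spot signals, in place of the planned mean signals, which are not used here), the authors' values, other filters, averaged probes, blocks and single arrays left out.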

Additional observations from a re-analysis of the deposited data

How the results depend on the processing

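No immediate early gene was called under any of the 16 alternatives with a test, where the smallest limma adjusted p of any member was 0.493. The median difference over the 10 genes, 0.16, stayed between 0.06 and 0.30 with 1 array left out, and was 0.16 within slide 1 and 0.17 within slide 2. Its lowest value came without wild-type replicate 2 (0.06) and without knockout replicate 2 (0.06). Of 180 member differences under an alternative 8 changed sign, 2 of them within slide 2 (Atf3 -0.027 and Ier3 -0.058) and 6 with 1 array left out: Fos ran from -0.11 without wild-type replicate 3 to 0.32, and was -0.031 without knockout replicate 2. Atf3 ran from -0.17 without knockout replicate 2 to 0.31, and was -0.049 without wild-type replicate 2. Ier3 ran from -0.10 without wild-type replicate 2 to 0.55, and Jun from -0.30 to 0.044, the latter without knockout replicate 1. The count over everything tested, 135, moved to 291 with the slide as a block, to 5 with the replicate number as a block, to 3 without a filter on dim probes, and to between 16 and 63 with 1 array left out. Over the pathway lists the count of 1, Osgin1, moved to 0 without the filter, with the replicate block, and without any 1 array except wild-type replicate 3 (0 to 1). Mrtfb, a partner of SRF, changed from -0.24 to 0.041 when the probes of a gene were averaged. The other scalings, the background correction and the authors' deposited values changed no call of a member and shifted the median of all genes by at most 0.015. Every member was well above background on all 6 arrays.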
